A study of Mus musculus with 9 samples.

Results

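The autophagy machinery was followed as 38 mouse genes, taken by their gene symbol from a count table of 49315 genes: 5 genes of the initiation kinase complex, 5 of the phosphatidylinositol 3-kinase (PI3K) complexes, 5 that supply lipid or read the lipid made by that kinase, 11 conjugation enzymes and their partners, 5 ATG8-family genes, 5 cargo receptors, and Tecpr1 and Tfeb. RNA came from RAW 264.7 cells, an established mouse macrophage line that can be driven towards osteoclasts by the cytokine RANKL, and was sequenced after removal of ribosomal RNA. The cells were plated for 24 hours and given 20 ng/ml RANKL. At 48 hours in all, 1 group of wells received 140 µM pamidronate and another 140 µM pamidronate together with geranylgeraniol (GGOH) at 5.25 µM. All cells were collected 24 hours later. The control wells are labelled as untreated, but the notes on cell growth describe RANKL without exception, so RANKL was read as shared by all groups. Each group has 3 libraries. The sources used here do not say whether the treated libraries stem from separate cultures, so p-values measure only the spread between these libraries, which may be technical.

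Autophagy encloses cytoplasm in a double membrane and delivers it to lysosomes. The ULK1 kinase complex starts the process, a class III PI3K complex marks the forming membrane with the lipid PI3P, ATG9 and ATG2 proteins supply lipid, and ubiquitin-like conjugation enzymes attach ATG8 proteins to the membrane, where receptors bring in cargo. In osteoclasts, conjugation proteins also take part in forming the ruffled border, the membrane through which the cell resorbs bone. Pamidronate, a nitrogen-containing bisphosphonate, blocks farnesyl diphosphate synthase of the mevalonate pathway, and geranylgeraniol can be turned by cells into the geranylgeranyl group that the pathway would have supplied.

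Promoter stretches of 4 genes are shown because the letters CACGTG, which the factor encoded by Tfeb and its relatives can bind, were searched for in the genes of this list. RefSeq promoter windows (GRCm38.p6, 250 bases before to 50 after a start site) were matched by symbol for 32 of the 38 genes, with 38 windows. Rb1cc1, Becn1, Pik3c3, Atg12, Atg16l1 and Map1lc3a had none. CACGTG, which reads the same on both strands, was in the windows of 4 of the 32 genes, against 8.09% of all 27025 genes with a window. The longer GTCACGTG, searched on both strands and always overlapping CACGTG, was in 3 of the 32 genes, Atg3, Atg7 and Atg14, against 2.55% of all genes. TGATGNAA, a form of the element that ATF4 can bind, was in 0 of the 32 genes on either strand, against 4.51% of all genes. The stretches below run 5′ to 3′ on the gene's strand with CACGTG in capitals. Those of Atg3, Atg5 and Atg7 were chosen after their values were seen.
Atg14: cacctggataaaaacaaaatccCACGTGac
Atg3: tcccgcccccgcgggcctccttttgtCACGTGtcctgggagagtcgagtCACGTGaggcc
Atg5: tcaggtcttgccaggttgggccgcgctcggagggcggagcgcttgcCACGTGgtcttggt
Atg7: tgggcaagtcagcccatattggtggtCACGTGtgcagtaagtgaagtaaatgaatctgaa
The Atg14 stretch is chr14:47568428-47568457 on the minus strand and its motif spans the start site. The Atg3 stretch is chr16:45158709-45158768 on the plus strand, with motifs that begin 94 and 71 bases before the start. The Atg5 stretch is chr10:44268279-44268338 on the plus strand, with its motif beginning 14 bases before the start, and the Atg7 stretch is chr6:114670938-114670997 on the plus strand, 132 bases before an annotated start. These 4 genes did not share a direction with pamidronate: Atg14 and Atg7 rose, Atg3 fell and Atg5 was not called. A match of letters is a description of the window and not a binding site.

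Library totals ran from 14356069 to 18957968 counts, and the groups differed in composition. Mitochondrial transcripts took 10.6% ± 0.23 (SD, n = 3) of counts in control, 4.21% ± 0.85 with pamidronate and 5.98% ± 0.48 with pamidronate + GGOH, and Malat1 took 1.52%, 4.83% and 2.59%. All 10 macrophage markers were at 1 CPM (counts scaled to library size with TMM factors) or more in each control library. With pamidronate, 9 of the 10 were called lower (against 32.9% of all genes tested). The 10 markers summed to 15940 to 20590 CPM in control, 4854 to 6843 with pamidronate and 6938 to 10040 with GGOH. Of 10 osteoclast markers, Calcr, Oscar and Ocstamp were at or near 0 in all 9 libraries, and the list summed to 217 to 247, 349 to 495 and 317 to 331 CPM. Of the 7 osteoclast markers tested, 4 were called higher with pamidronate (against 36.2% of all genes tested), 1 lower (against 32.9%) and 2 were not called. Marker lists of T and B cells, fibroblasts and epithelium summed to 2.38 CPM or less in every library, while 5 endothelial markers summed to 0.742 to 1.12 CPM in control, 5.13 to 7.00 CPM with pamidronate and 16.7 to 43.7 CPM with GGOH, mostly through Tek. The part of these differences in the results on autophagy genes was not tested, and fewer cells of a type and less RNA per cell cannot be told apart in bulk RNA.

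With pamidronate, the autophagy genes were more often higher than lower. Of the 38 genes, 22 were called higher (57.9%, against 36.2% of the 15963 genes tested) and 6 lower (15.8%, against 32.9%), where called means a Benjamini-Hochberg adjusted p under 0.05 over all genes tested, by the quasi-likelihood test of edgeR. In all 28 genes were called (73.7%, against 69.2%), close to the share over all genes. Changes of at least 2-fold were called in 12 genes (31.6%, against 37.9%), 9 higher and 3 lower, and the pamidronate and control libraries did not overlap for 31 genes (81.6%, against 73.4%). The median log2 fold change was 0.37, beside 0.08 over all genes tested. All 38 genes passed the filter on low counts, but Optn did so only through the treated groups, and without it 21 of 37 genes were higher, 6 lower and 11 changed by at least 2-fold. Together the 38 genes took 0.225% ± 0.004 of counts in control, 0.403% ± 0.010 with pamidronate and 0.341% ± 0.022 with GGOH added. These shares, like TPM, are not corrected with TMM factors for the differences in composition. In CPM, which is, the sums were 2413 ± 108 in control, 4142 ± 93 with pamidronate and 3116 ± 199 with GGOH added. Such sums lean on the most abundant genes. In TPM (counts per exon length, scaled to a common sum), Sqstm1 alone gave 281 of 1439 in control. It gave 931 of 2580 with pamidronate and 884 of 2327 with GGOH added (group means).

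Adding GGOH to pamidronate moved the list the other way. Against pamidronate alone, 20 genes were called lower (52.6%, against 23.6% of all genes tested) and 6 higher (15.8%, against 25.2%), 26 in all (68.4%, against 48.8%). Changes of at least 2-fold were called in 8 genes (21.1%, against 16.2%), of which only Atg10 was higher, and the libraries did not overlap for 31 genes (81.6%, against 59.6%). The median log2 fold change was -0.29, beside 0.00 over all genes. Against control, pamidronate + GGOH left 9 genes higher (23.7%, against 26.3%) and 9 lower (23.7%, against 26%), 18 in all (47.4%, against 52.4%), with a median of -0.05 beside 0.02. Only Sqstm1 and Optn were called with at least 2-fold (5.26%, against 19.3%; 1 of 37 without Optn), and 20 genes did not overlap (52.6%, against 58.2%). With upper-quartile scaling that split against control was 14 higher (36.8%) and 6 lower (15.8%), close to the split of all genes tested under that scaling (36.5% and 16.3%), whose median moved to 0.23. Without Optn, the main fit of pamidronate + GGOH against control had 8 of 37 genes higher (21.6%) and 9 lower (24.3%). That is 17 in all (45.9%), and 19 of the 37 did not overlap (51.4%). Each pair of these comparisons shares a group of libraries, so their values are given side by side and no overlap between them is counted.

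**Figure D1:**
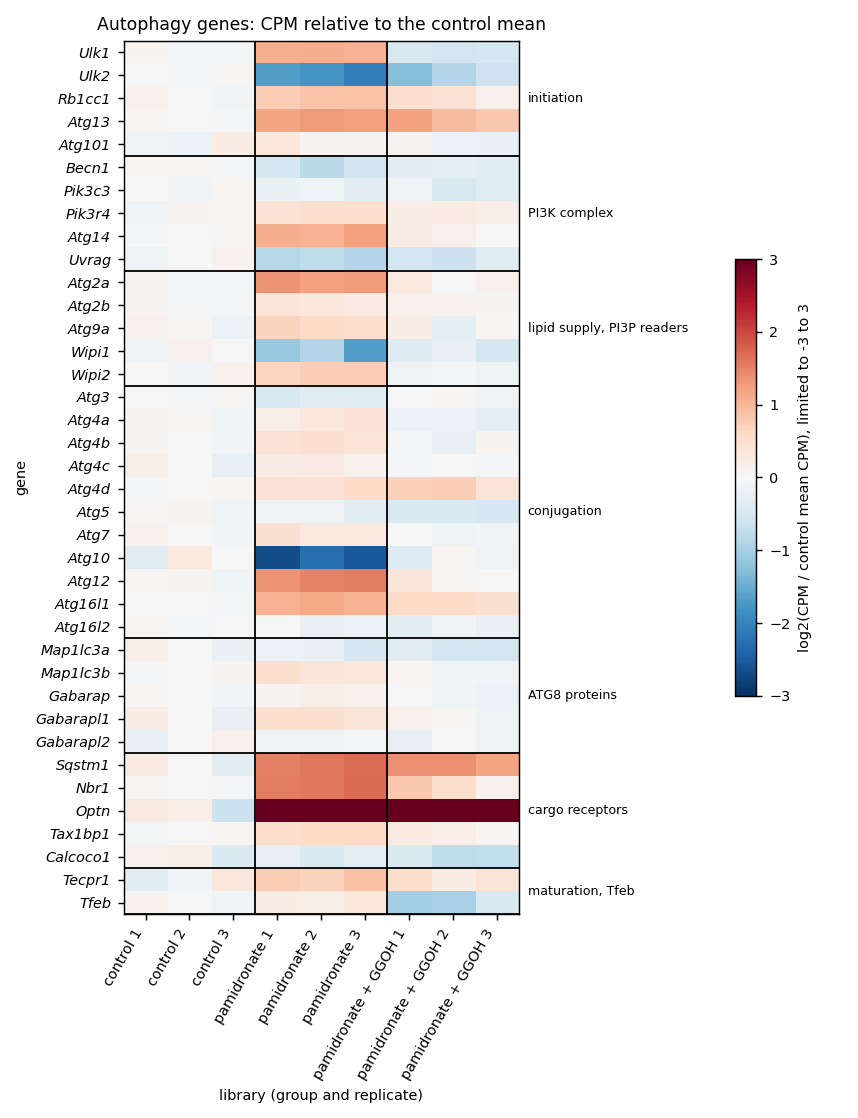
Heat map of each of the 38 autophagy genes (rows, by step) in each of the 9 libraries (columns), as log2 of CPM over the control mean, with colours limited to -3 to 3. Atg10 and Ulk2 are blue in the 3 pamidronate libraries, Sqstm1, Nbr1 and Atg12 are red, and Optn is beyond the colour range in every pamidronate library.

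In the initiation complex, the 2 kinase genes moved in opposite directions. Ulk1, the kinase that starts autophagosome formation (chr5:110784488-110810097, minus strand), was at 67.1, 61.6 and 59.9 CPM in control, 131, 133 and 131 CPM with pamidronate and 45.0, 42.9 and 43.6 CPM with GGOH. The 3 groups did not overlap, and the GGOH libraries were below the controls. The log2 fold change of Ulk1 was 1.07 ± 0.08 (SE, adjusted p = 3.3e-08) with pamidronate, -1.59 ± 0.08 (adjusted p = 1.67e-08) for GGOH against pamidronate, and -0.52 ± 0.08 (adjusted p = 0.000102) for GGOH against control. Its paralog Ulk2 (chr11:61775649-61855073, minus strand) was at 57.9, 55.7 and 59.6 CPM in control, 18, 16.9 and 13.6 CPM with pamidronate and 23.8, 31.3 and 37.8 CPM with GGOH. Every pamidronate library was below every other library, and the GGOH libraries lay between. Ulk2 fell by 1.83 ± 0.15 on the log2 scale with pamidronate (adjusted p = 1.45e-07), rose by 0.94 ± 0.15 with GGOH against pamidronate (adjusted p = 0.000179) and stayed 0.90 ± 0.14 below control (log2 fold change -0.90, adjusted p = 0.000196). Per exon length the kinases were level in control, at 21.9 ± 0.10 TPM (SD, n = 3) for Ulk1 and 21.9 ± 1.5 TPM for Ulk2, and apart with pamidronate, at 50.4 ± 1.2 and 6.73 ± 1.1 TPM.

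The scaffold genes of the same complex rose. Atg13, the subunit that links the kinase to its scaffold (chr2:91674618-91710576, minus strand), was at 84.4, 80.2 and 77.3 CPM in control, 184, 194 and 188 CPM with pamidronate and 185, 157 and 141 CPM with GGOH. Both treated groups were above control, and they overlapped each other. Its log2 fold change was 1.23 ± 0.10 with pamidronate (adjusted p = 7.4e-08) and 1.00 ± 0.10 with GGOH against control (adjusted p = 3.89e-06). The difference between the treated groups was -0.23 ± 0.10 and was not called (adjusted p = 0.0588, 95% interval -0.47 to 0.00), but it was called without pamidronate + GGOH replicate 1 (-0.30) or control replicate 1 (-0.24). Without pamidronate + GGOH replicate 3 it was -0.10 (adjusted p = 0.383). Rb1cc1, which encodes the large scaffold FIP200, rose by 0.82 ± 0.10 with pamidronate and was 0.36 ± 0.10 above control with GGOH. Atg101, the partner of Atg13, was not called in any comparison (0.17 ± 0.15 with pamidronate), but upper-quartile scaling called it higher with pamidronate.

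Among the PI3K complex genes, the subunit particular to autophagosome formation rose and the core subunit Becn1 fell. Atg14, which directs the kinase to the forming autophagosome and whose start-site stretch is printed above (gene at chr14:47540894-47568434, minus strand), was at 16.9, 17.5 and 17.8 CPM in control, 37, 35.7 and 41.1 CPM with pamidronate and 20.2, 19.5 and 17.2 CPM with GGOH. The pamidronate libraries stood above all others, and the GGOH and control libraries overlapped. Atg14 rose by 1.12 ± 0.10 on the log2 scale with pamidronate (adjusted p = 2.61e-07), fell by 1.00 ± 0.10 for GGOH against pamidronate (adjusted p = 3.17e-06) and was at 0.12 ± 0.10 for GGOH against control (adjusted p = 0.336). Upper-quartile scaling called Atg14 higher in the last of these. Uvrag, the subunit of the alternative, endosomal complex, fell by 0.83 ± 0.10 with pamidronate, was 0.31 ± 0.10 higher with GGOH than without, and stayed below control at -0.52 ± 0.10. Its call between the treated groups was lost without pamidronate replicate 1 (0.28) or 3 (0.28).

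Becn1, the scaffold of both complexes, was at 33.7, 33.8 and 31.5 CPM in control, 23.0, 18.8 and 21.9 CPM with pamidronate and 26.2, 26.8 and 25.7 CPM with GGOH, with no overlap between any 2 groups. It fell by 0.63 ± 0.10 with pamidronate (adjusted p = 5.65e-05), and the difference of 0.30 ± 0.10 between the treated groups (adjusted p = 0.0225) was lost without pamidronate replicate 2 (0.22, adjusted p = 0.122). Pik3r4, the regulatory subunit, rose by 0.48 ± 0.08 with pamidronate. Its call for GGOH against control (0.23 ± 0.09) was lost without any 1 of the 9 libraries, at 0.15 to 0.25, and that against pamidronate (-0.26 ± 0.08) was lost when any of 7 libraries was left out, control replicate 1 and pamidronate replicate 1 being the exceptions. Pik3c3, the catalytic subunit, was at -0.22 ± 0.11 with pamidronate (adjusted p = 0.0785) and was called lower with GGOH against control (-0.32 ± 0.11), a call lost without pamidronate + GGOH replicate 2 (-0.25). The Pik3c3 difference with pamidronate was called without control replicate 2 (-0.32) or any 1 of the 3 GGOH libraries, and was -0.18 without pamidronate replicate 3.

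All 5 genes of lipid supply and PI3P reading were called with pamidronate (against 69.2% of all genes tested), 4 higher (against 36.2%) and Wipi1 lower (against 32.9%). Of the same 5 genes, 0 were called between pamidronate + GGOH and control in the main fit, against 52.4% of all genes. Atg2a and Atg2b were called higher there with upper-quartile scaling and with a stricter filter on low counts. Atg2a, which encodes a lipid transfer protein (chr19:6241668-6262335, plus strand), was at 89.9, 83.9 and 82.2 CPM in control, 216, 196 and 207 CPM with pamidronate and 105, 85.2 and 93.2 CPM with GGOH. Its pamidronate libraries stood apart, and the other groups overlapped. Atg2a had a log2 fold change of 1.27 ± 0.09 with pamidronate (adjusted p = 2.73e-08) and -1.13 ± 0.09 for GGOH against pamidronate (adjusted p = 4.7e-07). Wipi1, a PI3P reader (chr11:109573331-109611967, minus strand), was at 6.19, 7.56 and 6.86 CPM in control, 3.12, 3.73 and 2.17 CPM with pamidronate and 5.28, 5.92 and 4.73 CPM with GGOH. The pamidronate libraries, with 35 to 59 counts each, were the lowest, and all GGOH libraries were also below control. Wipi1 fell by 1.19 ± 0.21 with pamidronate (adjusted p = 0.00014) and was 0.82 ± 0.21 higher with GGOH than without (adjusted p = 0.00522).

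Its paralog Wipi2, the reader that recruits the conjugation enzymes, moved the opposite way, with 0.71 ± 0.08 for pamidronate and -0.83 ± 0.08 for GGOH against pamidronate. Per exon length Wipi2 was above Wipi1 in control, at 13.6 ± 1.4 against 3.54 ± 0.50 TPM. Atg9a, the lipid scramblase carried by the vesicles that seed the membrane, was at 0.59 ± 0.12 and -0.58 ± 0.12. Atg2b, the paralog of Atg2a, changed least, at 0.32 ± 0.08 and -0.20 ± 0.08. The first of these Atg2b calls was lost without control replicate 2 (0.23) and the other without any of 7 libraries, control replicate 1 and pamidronate replicate 3 being the exceptions (-0.24 to -0.14 over all 9). That call of Atg2b between the treated groups was also lost under 7 of 9 other settings, among them both other scalings, DESeq2 and the replicate block.

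**Figure D2:**
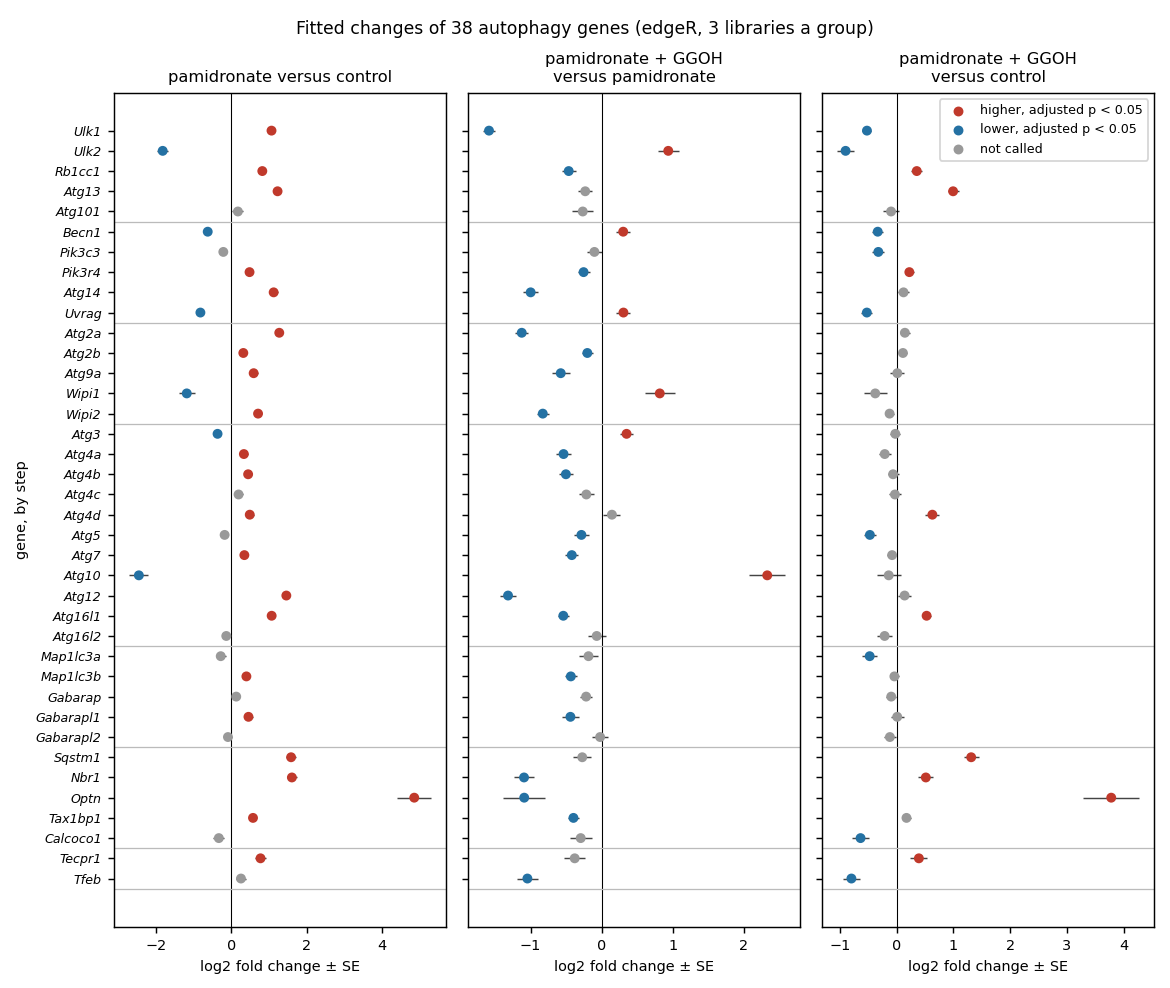
Fitted log2 fold change (x axis) of each autophagy gene (y axis, by step) in the 3 comparisons (axis ranges differ between panels), with bars of 1 SE from 3 libraries a group and red or blue points where the adjusted p was under 0.05. Optn lies farthest right with pamidronate at 4.87, but its points against control are a description with no test. Atg10 lies at -2.47 with pamidronate and at 2.33 for GGOH against pamidronate.

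In the conjugation step, the ubiquitin-like modifier Atg12 and the enzyme that attaches it moved in opposite directions, and Atg10 fell furthest of the 38 genes. Atg12 was at 30.1, 31.2 and 27.0 CPM in control, 75.0, 82.8 and 85.8 CPM with pamidronate and 37.9, 30.1 and 29.6 CPM with GGOH. The pamidronate libraries were well above all others, and the GGOH libraries overlapped control. The log2 fold change of Atg12 was 1.46 ± 0.11 with pamidronate (adjusted p = 4.14e-08), -1.32 ± 0.11 for GGOH against pamidronate (adjusted p = 5.66e-07) and 0.14 ± 0.11 for GGOH against control (adjusted p = 0.29). Upper-quartile scaling called Atg12 higher in the last of these. Atg10, the E2-like enzyme that joins ATG12 to ATG5 (chr13:90935349-91223987, minus strand), was at 4.26, 6.61 and 5.38 CPM in control, 0.856, 1.14 and 0.929 CPM with pamidronate and 4.14, 5.61 and 5.05 CPM with GGOH. Those pamidronate levels rest on 14 to 18 counts a library, and no pamidronate library came near another group. Atg10 fell by 2.47 ± 0.25 with pamidronate (adjusted p = 7.71e-07), was 2.33 ± 0.25 higher with GGOH than without (adjusted p = 5.46e-06) and was at -0.14 ± 0.21 against control (adjusted p = 0.6, 95% interval -0.65 to 0.37).

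Atg16l1, which carries the ATG12-ATG5 conjugate to the membrane (chr1:87755870-87792428, plus strand), was at 35.0, 34.9 and 33.7 CPM in control, 71.2, 75.6 and 70.7 CPM with pamidronate and 51.1, 51.2 and 47.2 CPM with GGOH. The groups did not overlap, with GGOH between the others. Its log2 fold change was 1.07 ± 0.08 with pamidronate (adjusted p = 4.92e-08), -0.54 ± 0.08 for GGOH against pamidronate and 0.53 ± 0.08 against control. Its paralog Atg16l2 was not called in any comparison (-0.14 ± 0.13 with pamidronate). Atg5, the acceptor of ATG12, was at 35.3, 36.6 and 31.2 CPM in control, 31.7, 32.0 and 27.1 CPM with pamidronate and 25.1, 25.1 and 24.3 CPM with GGOH. Only the GGOH libraries stood apart, below both other groups. Atg5 was at -0.18 ± 0.10 with pamidronate (adjusted p = 0.119) and at -0.47 ± 0.10 for GGOH against control. It was called with pamidronate without control replicate 3 (-0.31) or pamidronate + GGOH replicate 3 (-0.24), and was -0.11 without pamidronate replicate 3. The Atg5 call between the treated groups (-0.29 ± 0.10) was lost when any of 7 libraries was left out, at -0.36 to -0.23 over all 9, with control replicate 1 and pamidronate replicate 3 as the exceptions.

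The remaining conjugation enzymes changed by less than 2-fold. Atg7, the E1-like enzyme that activates ATG12 and the ATG8 proteins, was at 0.34 ± 0.09 with pamidronate and -0.42 ± 0.09 for GGOH against pamidronate, and leaving out control replicate 3 ended the first call (0.24, adjusted p = 0.0546). Atg3, the E2-like enzyme for the ATG8 proteins, was at -0.37 ± 0.09 and 0.35 ± 0.09, and its pamidronate call was lost with upper-quartile scaling (-0.18, adjusted p = 0.0879). Of the 4 Atg4 proteases, which trim ATG8 proteins, Atg4a (0.33 ± 0.11), Atg4b (0.44 ± 0.10) and Atg4d (0.49 ± 0.12) were higher with pamidronate, while Atg4c was not called at 0.19 ± 0.10, was called without control replicate 1 (0.28), and was at 0.02 without control replicate 3. Upper-quartile scaling and the stricter filter also called Atg4c higher. The Atg4a call was lost without control replicate 2 (0.29) or 3 (0.21) or pamidronate replicate 3 (0.27). Atg4d was the exception among them with GGOH, staying above control at 0.63 ± 0.12. Its exons share 19.3% of their bases with Kri1 on the other strand, which had 1453 counts over the 9 libraries to 2457 for Atg4d and was itself at 0.38 with pamidronate.

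**Figure D3:**
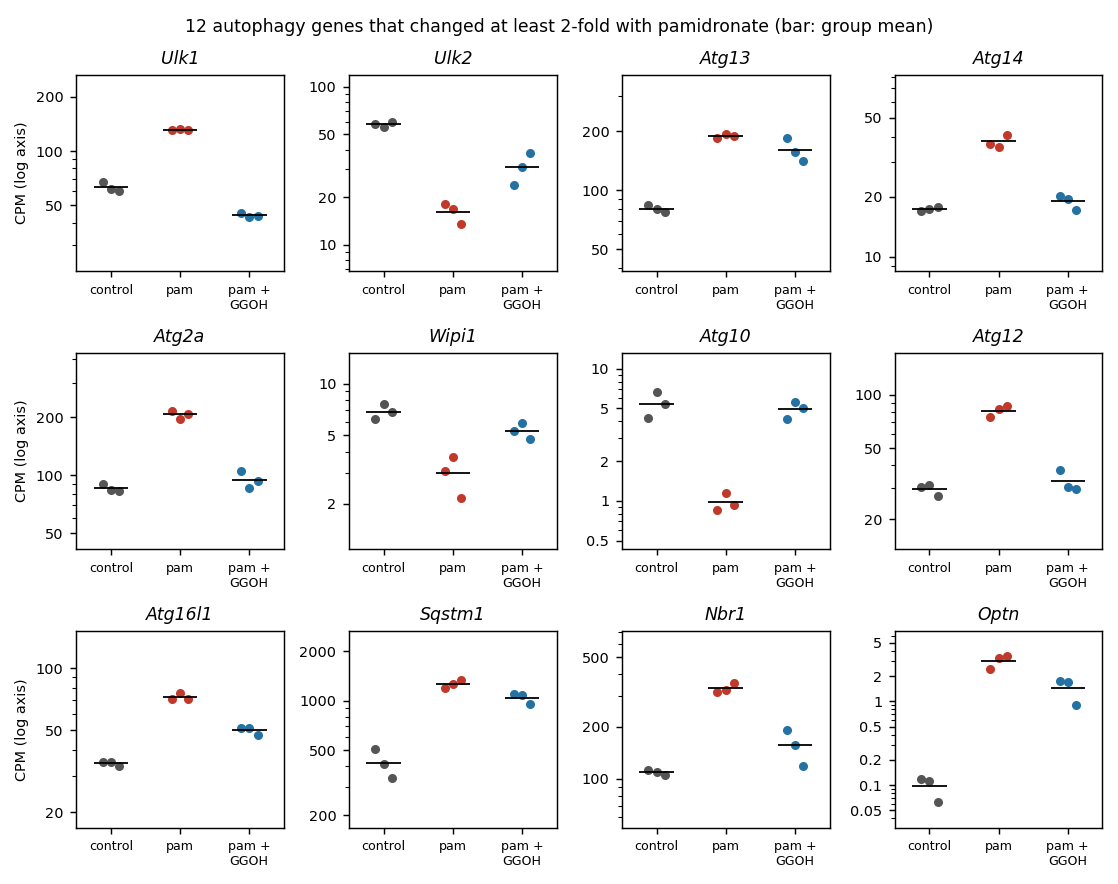
CPM (log y axes, 1 panel a gene) in each of the 3 control, 3 pamidronate and 3 pamidronate + GGOH libraries for the 12 autophagy genes called with at least a 2-fold change with pamidronate, with bars at group means. With GGOH, Atg10, Atg12, Atg14 and Atg2a overlap control. Sqstm1, Nbr1, Atg13, Atg16l1 and Optn stay above it, and Ulk1, Ulk2 and Wipi1 lie below it. Optn passed the filter on low counts only through the treated groups, so its differences from control are a description with no test.

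Of the 5 ATG8-family genes, whose products mark the autophagosome membrane, 2 were called higher with pamidronate (against 36.2% of all genes tested), 0 lower (against 32.9%) and none with as much as a 1.5-fold change. Gabarap was the highest of all 38 genes in control per exon length, at 471 ± 12 TPM. Gabarap (chr11:69991143-69994951, plus strand) was at 402, 387 and 363 CPM in control, 406, 436 and 414 CPM with pamidronate and 388, 349 and 342 CPM with GGOH. The pamidronate libraries were just above both other groups, which overlapped. Gabarap had a log2 fold change of 0.13 ± 0.09 with pamidronate (adjusted p = 0.211, 95% interval -0.09 to 0.34) and -0.22 ± 0.09 for GGOH against pamidronate (adjusted p = 0.0505), and neither was called. DESeq2, limma-voom, the stricter filter, the 2 groups fitted alone and the fit without control replicate 1 called the latter. It ran from -0.25 to -0.14 as each library was left out, nearest 0 without pamidronate + GGOH replicate 3. The Gabarap difference from control was 0.03 without control replicate 3. With upper-quartile scaling Gabarap was called higher with pamidronate, at 0.32, and the stricter filter also called it higher. On the TPM scale it was at 564 ± 13 with pamidronate and 555 ± 27 TPM with GGOH.

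Gabarapl1, next in level within the family (chr6:129533160-129542346, plus strand), was at 67.3, 56.5 and 48.2 CPM in control, 80.2, 79.6 and 75.5 CPM with pamidronate and 63.7, 58.6 and 51.2 CPM with GGOH. Its pamidronate libraries were the highest, and the other groups overlapped. Gabarapl1 rose by 0.45 ± 0.11 with pamidronate (adjusted p = 0.00276), which became 0.28 without control replicate 3, and was at -0.44 ± 0.11 for GGOH against pamidronate. Map1lc3b, which encodes the LC3B protein widely used as an autophagosome marker, was at 0.40 ± 0.08 and -0.43 ± 0.08. Map1lc3a was at -0.29 ± 0.13 with pamidronate (adjusted p = 0.0705), called without control replicate 3 (-0.43) or any 1 of the 3 GGOH libraries and at -0.19 without pamidronate replicate 3. It was called lower with GGOH against control (-0.47 ± 0.13). Gabarapl2 was not called in any comparison (-0.09 ± 0.11 with pamidronate), and 3 near-identical pseudogenes of it had 1 to 12 counts each.

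In TPM, Gabarap made up 76.8% ± 0.58, 75.7% ± 1.0 and 77.1% ± 0.55 of the 5 transcripts in control, pamidronate and pamidronate + GGOH. Gabarapl1 made up 10.5% ± 1.1, 13.0% ± 0.41 and 11.3% ± 0.61, and Map1lc3a 5.75% ± 0.40, 4.27% ± 0.48 and 4.45% ± 0.13. The log2 ratio of Map1lc3b to Gabarap was -4.69, -4.59 and -4.40 in control, -4.17, -4.36 and -4.34 with pamidronate and -4.51, -4.51 and -4.49 with GGOH. All pamidronate libraries had the higher ratio. With 3 libraries against 3 the exact two-sided permutation test cannot go below 0.1, which is the value for pamidronate against either other group, and it gave 0.7 for GGOH against control. Adjusted over these 3 comparisons by Benjamini-Hochberg, the exact values were 0.15, 0.15 and 0.7.

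**Figure D4:**
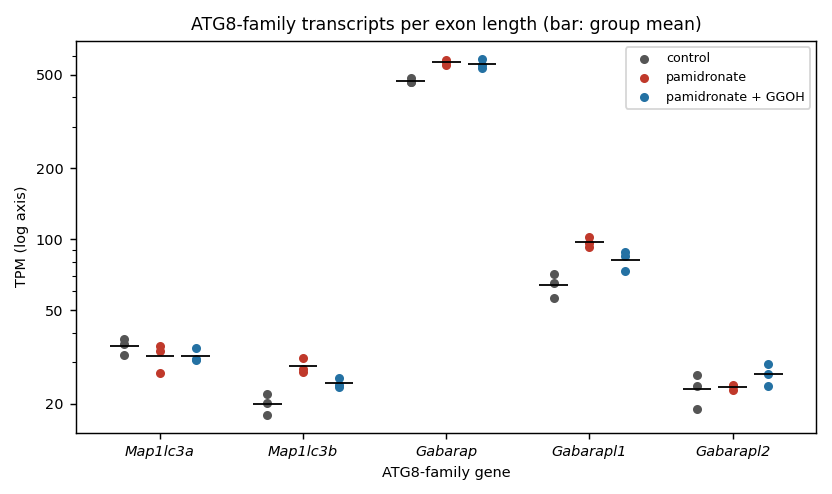
TPM (log y axis) of the 5 ATG8-family genes (x axis) in each library, coloured by group, with bars at group means. Gabarap is the highest at 471 TPM in control, and Gabarapl1 comes next at 64.1 TPM.

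Of the 5 cargo receptor genes, 4 were called higher with pamidronate (3 of 4 without Optn, against 36.2% of all genes tested), 0 lower (against 32.9%) and Calcoco1 was not called. The median log2 fold change of the 4 genes other than Optn was 1.08. Sqstm1, which encodes the ubiquitin-binding receptor p62 (chr11:50199366-50210827, minus strand), was at 505, 414 and 337 CPM in control, 1190, 1257 and 1330 CPM with pamidronate and 1091, 1080 and 953 CPM with GGOH. All treated libraries were above every control, and the GGOH libraries were just below those with pamidronate alone. The log2 fold change of Sqstm1 was 1.59 ± 0.13 with pamidronate (adjusted p = 1.08e-07) and 1.31 ± 0.13 for GGOH against control (adjusted p = 4.69e-06). Between the treated groups it was -0.27 ± 0.13 (adjusted p = 0.0932, 95% interval -0.59 to 0.04). It was called without control replicate 1 (-0.28) and with the 2 groups fitted alone. Without pamidronate + GGOH replicate 3 it was -0.17. Sqstm1 reached 931 ± 38 TPM with pamidronate, from 281 ± 42 TPM in control. Mrnip on the other strand shares 17.3% of its exon bases, with 1156 counts over the 9 libraries to 137008 for Sqstm1.

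Nbr1, a receptor that partners with p62 (chr11:101552149-101581951, plus strand), was at 112, 110 and 105 CPM in control, 318, 324 and 355 CPM with pamidronate and 191, 157 and 119 CPM with GGOH. The groups did not overlap, and the GGOH libraries lay between the others and spread widely. Nbr1 rose by 1.61 ± 0.14 with pamidronate (adjusted p = 2.68e-07). With GGOH its log2 fold change was -1.09 ± 0.13 against pamidronate (adjusted p = 2.44e-05) and 0.52 ± 0.13 against control (adjusted p = 0.00602), which became 0.33 without pamidronate + GGOH replicate 1. Optn, the receptor optineurin that acts on ubiquitin-coated mitochondria and bacteria (chr2:5020642-5064051, minus strand), had 2, 2 and 1 counts in the control libraries, 40, 52 and 56 with pamidronate and 31, 27 and 17 with GGOH. It was near absent in control and low in all groups, at 2.02 ± 0.32 TPM with pamidronate. Since Optn passed the filter on low counts only through the treated groups, it had to differ from control, so its fitted log2 differences from control, 4.87 with pamidronate and 3.78 with GGOH, are a description with no test. With 5 counts over the control group, their size rests on few reads. Between the treated groups the log2 fold change of Optn was -1.09 ± 0.30 (adjusted p = 0.007).

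Tax1bp1, a receptor that also binds ubiquitin, was at 0.57 ± 0.08 with pamidronate and -0.40 ± 0.08 for GGOH against pamidronate, and at 0.18 ± 0.08 for GGOH against control, which was called without pamidronate + GGOH replicate 3 (0.22). Upper-quartile scaling and the stricter filter also called that last difference. Calcoco1, a receptor for endoplasmic reticulum and Golgi, was at 29.5, 30.9 and 20.2 CPM in control, 22.5, 19.5 and 21.8 CPM with pamidronate and 19.9, 15.9 and 16.1 CPM with GGOH. Its control replicate 3 lay within the pamidronate range. The Calcoco1 change with pamidronate was -0.34 ± 0.15 (adjusted p = 0.0576), or -0.57 and called without that library, and it was also called when any 1 of the 3 GGOH libraries was left out. It was -0.27 without control replicate 1. Against control, Calcoco1 was lower with GGOH at -0.63 ± 0.15.

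Tfeb, the transcription factor that drives lysosome and autophagy genes (chr17:47737030-47792419, plus strand), was at 17.8, 16.5 and 15.0 CPM in control, 19.2, 18.5 and 20.9 CPM with pamidronate and 8.06, 8.35 and 11.9 CPM with GGOH. The GGOH libraries were the lowest, below both other groups. Tfeb was at 0.25 ± 0.14 with pamidronate (adjusted p = 0.133, called with upper-quartile scaling at 0.45), -1.05 ± 0.15 for GGOH against pamidronate (adjusted p = 5.33e-05) and -0.79 ± 0.15 for GGOH against control (adjusted p = 0.000546). Tecpr1, which links autophagosomes to lysosomes, was at 0.77 ± 0.15 with pamidronate and -0.38 ± 0.15 for GGOH against pamidronate (adjusted p = 0.0511), called by DESeq2, limma-voom and the fits without control replicate 1 or 3, and at -0.25 without pamidronate + GGOH replicate 2. That difference between the treated groups was also called with no filter, with the 2 groups fitted alone and with the replicate block. The Tecpr1 difference of 0.39 ± 0.15 between GGOH and control was lost when any of 7 libraries was left out, at 0.24 without control replicate 1, and held without control replicate 3 or pamidronate + GGOH replicate 2.

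The counts of the other lists of the pathway stand beside 36.2% of all genes tested called higher and 32.9% lower with pamidronate, and 26.3% higher and 26% lower for GGOH against control. Of 10 further core genes and partners, 8 were higher with pamidronate and 1 lower (median 0.71): Tmem41b (1.52 ± 0.11) and Vmp1 (1.23 ± 0.08), lipid scramblases of the endoplasmic reticulum, and the PI3P reader Wdr45 (0.90 ± 0.21) rose, while Bcl2, a binding partner of Beclin 1, fell by 1.14 ± 0.11. Of 17 genes of autophagosome fusion with lysosomes, 10 were lower and 5 higher (median -0.51), including the SNARE genes Snap29 (-1.28 ± 0.10) and Stx17 (-1.15 ± 0.12), the small GTPase Rab7 (-0.86 ± 0.10) and the lysosomal membrane protein Lamp2 (-0.80 ± 0.09). With GGOH against control, 9 of the 17 fusion genes were lower and 3 higher. Of 18 receptors for organelles and other cargo, 10 were lower and 5 higher (median -0.40), with Cuedc2 (-1.54 ± 0.12) and the endoplasmic reticulum receptor Fam134b (-1.17 ± 0.09) lower, and the ubiquitin-binding Tollip (1.16 ± 0.09) higher. Stbd1, a glycogen receptor, was at 1.14 CPM or less in every library and passed the filter on low counts only through treated libraries. Its fitted log2 difference of 1.57 between pamidronate and control is therefore a description with no test, and the 5 receptors counted higher include it.

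Upstream, 13 of 31 tested genes of mTORC1, AMPK and nutrient sensing were higher with pamidronate (against 36.2% of all genes) and 11 lower (against 32.9%), with a median of 0.12. Deptor, an inhibitor of mTOR, fell by 3.58 ± 0.14, from 69.0, 74.6 and 72.3 CPM in control to 6.66, 6.51 and 4.83 CPM, and was at 24.8, 30.03 and 33.8 CPM with GGOH. Prkaa1, the catalytic AMPK subunit, fell by 2.17 ± 0.12, while Tsc1 (1.80 ± 0.13), a brake on mTORC1, rose. The GTPase Rragd, at 0.742 CPM or less in control, passed the filter on low counts only through the treated groups. Its fitted log2 difference of 3.29 between pamidronate and control is therefore a description with no test, and the 13 genes counted higher include it. Against pamidronate alone, GGOH gave 2.30 ± 0.14 for Deptor, 1.40 ± 0.12 for Prkaa1, -1.38 ± 0.28 for Rragd and -1.07 ± 0.13 for Tsc1, all called.

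Of 11 transcription factors and cofactors of autophagy genes, 5 rose and 5 fell with pamidronate (against 36.2% and 32.9% of all genes, median -0.06). Atf4, a factor of the integrated stress response, was at 162, 156 and 138 CPM in control, 735, 788 and 905 CPM with pamidronate and 395, 336 and 261 CPM with GGOH, with no overlap between groups. Its log2 fold change was 2.41 ± 0.14 with pamidronate and -1.29 ± 0.14 for GGOH against pamidronate. Ddit3, a target of ATF4, was at 2.86 ± 0.20 and -1.03 ± 0.19, and Trp53inp1, a cofactor that binds ATG8 proteins, at 1.84 ± 0.19 and -2.26 ± 0.19. Mitf, a relative of Tfeb, fell by 1.98 ± 0.15 with pamidronate and was 0.94 ± 0.15 higher with GGOH than without. Of 15 lysosomal genes known as targets of the TFEB family, 10 were lower and 4 higher (against 32.9% and 36.2% of all genes, median -0.31), with the hydrolase genes Sgsh (-1.94 ± 0.12) and Gaa (-1.44 ± 0.10) lower and Gla (1.55 ± 0.13) higher. With GGOH against control, 8 of these 15 were lower and 3 higher, against 26% and 26.3% of all genes.

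**Figure D5:**
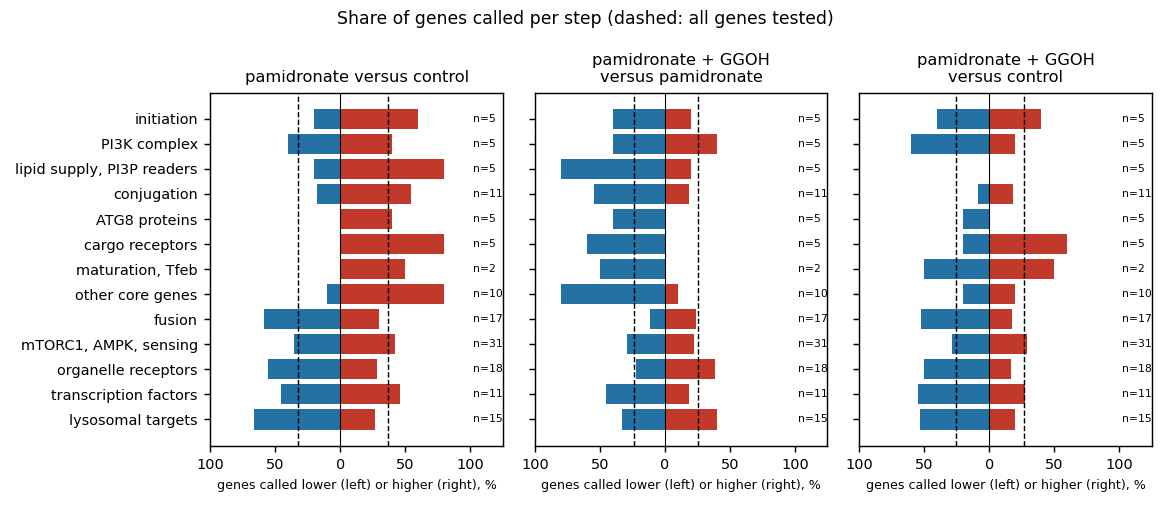
Percent of tested genes called higher (red, right) or lower (blue, left) on the x axis for each step or list (y axis) in the 3 comparisons, with dashed lines at the shares over all genes tested and n the number of genes tested. With pamidronate, cargo receptors reach 4 of 5 higher, Optn included, while fusion genes are lower in 10 of 17.

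Reads shared between overlapping genes limit some of these values, since no source used here states whether counting used strand. Exons of 11 of the 38 genes overlap those of another gene, most of all for Becn1, with 43.9% of exon bases shared with Cntd1 on the other strand (177 counts over the 9 libraries to 4097 for Becn1). Cntd1 rose by 1.55 on the log2 scale with pamidronate while Becn1 fell. Atg9a shares 31.8% with Gm29253 (17 counts), Gabarapl1 28.3% with 1700101I11Rik (56 counts) and Uvrag 17.6% with Gm45187 (207 counts).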

How the data were processed

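The authors deposited raw counts per gene for the 9 libraries and TPM values, which equal the count over exon length scaled to a common sum (largest difference 5e-05). Reads were trimmed with Trimmomatic 0.36 and the build was GRCm38, per the submitters' processing notes, which also name DESeq. Aligner, counter and strand setting: not given in the sources used here. Groups follow the treatment labels.

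Genes were kept with filterByExpr (15963 of 49315), scaled with TMM factors and fitted with 1 model of group means over all 9 libraries in edgeR 4.0.16 (quasi-likelihood test, robust, R 4.3.3, Benjamini-Hochberg adjustment, called under 0.05). Each SE is the fold change's size (log2) divided by the root of the F statistic. TPM served for levels between genes and for ratios, with exact permutation tests.

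The 38 genes and the lists were chosen with earlier results of these data known. Genes described in full were called at 2-fold or more with pamidronate or between the treated groups, or were among the 3 highest by TPM in control. Up to 4 called genes with the largest change were named from each other list; 1 gene that this rule took is not reported here. Exon overlaps came from the exon positions that the authors deposited with the counts, and near copies from BLAST 2.17.0 among GENCODE transcripts. Replicates differed by more than counting error (chi-square per degree of freedom 4.00 to 37.2). Alternatives included RLE and upper-quartile factors, other filters, DESeq2 1.42.0, limma-voom (limma 3.58.1), a replicate block and leaving out each library.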

Additional observations from a re-analysis of the deposited data

How the results depend on the processing

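In the comparison in which it was called at 2-fold or more, each such gene kept its direction and its adjusted p under 0.05 under every alternative run, except that the stricter filter left Optn untested. The size did not always stay at 2-fold, a log2 fold change of 1. Leaving out 1 library brought Ulk1 to 0.97 and Atg16l1 to 0.99 with pamidronate at the least. For GGOH against pamidronate, Atg14 came to -0.89, Nbr1 to -0.89, Tfeb to -0.90 and Optn to -0.79. A minimum of 1.5-fold beside the adjusted p left 13 genes higher with pamidronate, 3 higher and 8 lower for GGOH against pamidronate, and 4 higher and 3 lower for GGOH against control. Upper-quartile factors gave 14 higher for GGOH against control, where the main fit gave 9, and moved the median of all genes with pamidronate from 0.08 to 0.28. Leaving out 1 library at a time gave 6 to 10 genes lower with pamidronate, with 10 without pamidronate + GGOH replicate 3, which is not in that contrast but shares the model. Of 2049 recomputed log2 fold changes of the 38 genes, 45 changed sign, and 0 of these were called in either fit. The log2 ratio of Map1lc3b to Gabarap for GGOH against control was 0.06 and ran from -0.0092 (without control replicate 1) to 0.14 (without control replicate 3). Calls near the threshold also changed with other scalings, filters or tools, among them those of Pik3c3, Map1lc3a and Calcoco1 with pamidronate. The causes of these shifts were not tested.

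With the replicate number as a block, 22 genes were higher and 7 lower with pamidronate, 6 and 20 for GGOH against pamidronate, and 9 and 9 for GGOH against control. Same-numbered libraries did not deviate together, with correlations from -0.22 to 0.20, so the numbers were not taken as pairs. Depth limits Optn in control, Atg10 with pamidronate and Wipi1, which rest on few counts.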
